A study of Arabidopsis thaliana with 9 samples.

Results

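Binding of the transcription factor NAC103 was followed at 8 chaperone genes of the endoplasmic reticulum (ER) of Arabidopsis thaliana, of 27444 nuclear protein-coding genes in the gene table. They were chosen by locus: BIP1 (AT5G28540), BIP2 (AT5G42020), BIP3 (AT1G09080), SHD (AT4G24190), ERDJ3A (AT3G08970), ERDJ3B (AT3G62600), P58IPK (AT5G03160) and SDF2 (AT2G25110). A peak was assigned to a gene where at least 1 bp of it lay in the gene's span or within 1000 bp on either side. All 8 loci were found in the table, and their spans ran from 2230 bp for SDF2 to 4507 bp for SHD.

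NAC103 is a member of the NAC family that has been described as part of the response to unfolded proteins in the ER. Chromatin immunoprecipitation (ChIP) used 3 replicates of whole 35S:NAC103-GFP seedlings, 5 days old, held for 24 h in 20 µM of the proteasome inhibitor MG132 and fixed with 1% formaldehyde, each with an input of the same genotype and treatment. DNA affinity purification (DAP) used NAC103-Halo on bare genomic DNA of untreated Col seedlings of the same age, in 2 replicates that share 1 input. The 35S promoter is strong and active in most tissues, and the level of NAC103 under MG132 was not measured here. The chromatin is a mixture of all seedling cells. ChIP without the drug, without the fusion or with GFP alone was not analysed here, and nothing in the labels says whether replicates came from separate cultures. The authors deposited 1 peak list per ChIP or DAP replicate, called against input, with 4187, 14318 and 17074 nuclear peaks in ChIP replicates 1, 2 and 3 and 20746 and 20962 in the DAP replicates.

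BiP is the Hsp70 chaperone of the ER. It binds unfolded stretches of proteins as they enter the ER and releases them in cycles of ATP hydrolysis. J proteins such as ERDJ3A, ERDJ3B and P58IPK stimulate that hydrolysis and bring clients to BiP, SDF2 acts in a complex with ERDJ3B, and SHD is the Hsp90 chaperone of the ER, which matures client proteins including receptors of the CLAVATA pathway. BIP1 and BIP2 encode almost identical proteins and are expressed throughout the plant, whereas BIP3 is weakly expressed in unstressed plants and strongly induced when unfolded proteins accumulate. No transcript was measured here, so the terms constitutive and stress-induced are background and were not checked in these seedlings.

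ChIP replicate 3 alone held a peak at all 8 genes, beside 59.7% of coding genes, but the support from the other lists was unequal. The share of coding genes with a peak in any list was not counted. A reproducible ChIP region, meaning merged peaks from at least 2 of the 3 replicates, lay at BIP1, BIP2, BIP3, SHD, ERDJ3B and SDF2, which is 6 of the 8, beside 39.6% of all coding genes. ERDJ3A and P58IPK had a ChIP peak in replicate 3 only. A reproducible DAP region, with a peak in both replicates, lay at BIP1, BIP2, BIP3, SHD and P58IPK, which is 5 of the 8, beside 59.9% of coding genes. The DAP count is thus close to the background share. Regions of both assays were present at BIP1, BIP2, BIP3 and SHD, 4 of the 8, beside 25.2% of coding genes. Among the 10131 coding genes with spans between the shortest and the longest of the 8, the shares were 44.9% for ChIP, 64.8% for DAP and 30.0% for both. With 8 genes chosen with earlier results of these data known, these counts are a description and carry no test.

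The single lists differed in how many of the genes they held. ChIP replicate 1, the shortest list, held a peak at 3 genes (BIP3, SHD and SDF2), beside 17% of coding genes (4675 of 27444). ChIP replicate 2 held 6 (all but ERDJ3A and P58IPK), beside 50.8%, and ChIP replicate 3 held all 8, beside 59.7%. DAP replicate 1 held 6 (all but ERDJ3A and SDF2), beside 64.4%, and DAP replicate 2 held 5 of these without ERDJ3B, beside 64.7%. ERDJ3A and SDF2 had no DAP peak in either replicate. Only BIP3 and SHD had a ChIP peak in all 3 replicates. The count of 6 genes with a reproducible ChIP region therefore rests on replicates 2 and 3: it was 2 (BIP3 and SHD) without replicate 2, beside 15.9% of coding genes, 3 (BIP3, SHD and SDF2) without replicate 3, beside 13.8%, and 6 without replicate 1, beside 37.2%. The share of all coding genes thus fell along with the count.

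**Figure D1:**
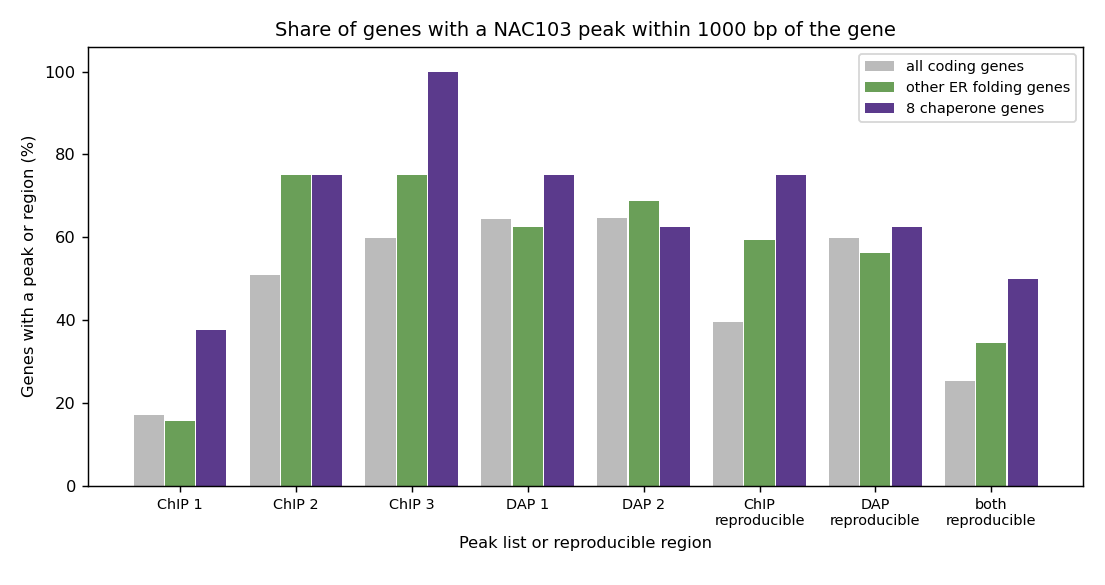
Percentage of genes with a NAC103 peak within 1000 bp of the gene, for each of the 5 peak lists and for reproducible regions, among all 27444 coding genes (grey), 32 other genes of ER folding and its stress response (green) and the 8 chaperone genes (purple). The purple bars stand for 3, 6, 8, 6 and 5 of 8 genes in the single lists, and for 6, 5 and 4 of 8 in the reproducible regions.

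The constitutive genes BIP1 and BIP2 were bound by ChIP at the same place relative to their spans, just inside the end with the higher coordinate. The gene table gives no strand, so the ends are called low and high by coordinate, and whether an end is a start was not used here. At BIP1 the ChIP peaks covered chr5:10543029-10543487 in replicate 2 and chr5:10543157-10543657 in replicate 3 (TAIR10), with summits 310 bp and 201 bp inside the high end. At BIP2 they covered chr5:16810328-16810782 in replicate 2 and chr5:16810428-16810814 in replicate 3, with summits 185 bp and 95 bp inside the high end. ChIP replicate 1 had no peak at either gene. In each gene, then, the peaks of replicates 2 and 3 overlapped, and their summits lay 109 bp apart at BIP1 and 90 bp apart at BIP2.

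The ChIP peaks of BIP1 and BIP2 had like folds in replicate 2, and BIP2 had the higher fold in replicate 3. The authors' fold enrichment over background at the summit was 2.40 at BIP1 and 2.40 at BIP2 in replicate 2, which put them at the 77.0 and 77.3 percentile of the nuclear peaks of that list. In replicate 3 the folds were 2.22 at BIP1 and 3.14 at BIP2, at the 33.7 and 78.7 percentile. Reads at the summit, recovered from the fold and p-value of each peak, numbered 52 at BIP1 (95% exact Poisson interval 38.8 to 68.2) and 63 at BIP2 (48.4 to 80.6) in replicate 3, over backgrounds of 22.9 and 19.4 reads. These intervals overlap, and they cover counting error only. The coding sequences of BIP1 and BIP2 are closely alike. How reads that match both genes were treated is not given in the sources used here, so signal inside these spans may be shared between them.

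On bare DNA the same pair of genes was bound at other places. BIP1 had a DAP peak 1103 bp inside the high end in replicate 1 and 1097 bp inside it in replicate 2, within chr5:10542344-10542775, with folds of 2.38 and 2.41. BIP2 had its reproducible DAP peak at the opposite end from its ChIP peak, 102 bp and 113 bp inside the low end, within chr5:16807119-16807634, with folds of 2.36 and 2.51. A further DAP peak at BIP2, 937 bp inside the high end, was present in replicate 2 only, with a fold of 2.03 and 101 reads at its summit. All DAP peaks of BIP1 and BIP2 ranked in the lower part of their lists, between the 16.6 and the 41.1 percentile of fold. No ChIP peak overlapped a DAP peak at either gene: the nearest peaks were 253 bp apart at BIP1 and 462 bp apart at BIP2, and the nearest summits 787 bp and 752 bp.

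The stress-induced gene BIP3 had higher-ranked DAP peaks than BIP1 and BIP2. Its ChIP peaks ranked above those of BIP1 and BIP2 in replicates 2 and 3, but only by little over BIP2 in replicate 3. The ChIP summits assigned to BIP3 lay over the neighbouring gene. The ChIP peaks were wide, 1301 bp, 1800 bp and 1606 bp in replicates 1, 2 and 3, and merged to chr1:2927315-2929379. All 3 summits fell inside SRC2 (AT1G09070), a gene of a C2-domain protein 109 bp beyond the low end of BIP3, and lay 502 bp, 1379 bp and 1524 bp outside BIP3. The summits of replicates 2 and 3 were outside the 1000 bp flank, so in these replicates BIP3 was reached by the width of the peak alone. Only the peak of replicate 2 entered the BIP3 span. Whether the ChIP signal belongs to BIP3 or to SRC2 was not tested.

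In value, the ChIP peak at BIP3 and SRC2 was among the stronger ones of its lists. Its fold was 2.33 in replicate 1, 3.99 in replicate 2 and 3.18 in replicate 3, at the 87.6, 98.5 and 80.1 percentile. The −log10 q was 7.86, 33.7 and 13.1. In replicate 2, 124 reads stood at the summit in SRC2 (95% exact Poisson interval 103 to 148), against 62 at BIP2 (47.5 to 79.5) and 55 at BIP1 (41.4 to 71.6). The backgrounds were 30.4, 25.3 and 22.4 reads. The interval of this summit, which lies outside BIP3 and its flank, did not overlap those of the constitutive genes. In replicate 3 the intervals did overlap: 64 reads at the summit in SRC2 (49.3 to 81.7) against 63 at BIP2. The percentile of the highest ChIP fold averaged 88.7 ± 9.24 at BIP3 (SD, n = 3), 78.0 ± 0.99 at BIP2 (n = 2) and 55.4 ± 30.6 at BIP1 (n = 2). These means take only replicates with a peak, so replicate 1 enters for BIP3 alone. Without replicate 1 the mean at BIP3 was 89.3 (n = 2). In both replicates 2 and 3 BIP3 ranked first, then BIP2, then BIP1, but BIP2 and BIP1 were close in replicate 2, as were BIP3 and BIP2 in replicate 3. The spread over replicates does not resolve this order.

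DAP gave BIP3 a pair of reproducible regions inside the gene, near its opposite ends. The first, within chr1:2929283-2929783, had summits 267 bp and 277 bp inside the low end and folds of 3.25 and 3.22. The second, within chr1:2930996-2932079, had summits 220 bp and 222 bp inside the high end and folds of 2.92 and 2.65. The first region ranked at the 66.4 and 66.2 percentile of the 2 lists, above every DAP peak of BIP1 and BIP2. Reads at its summit were 156 (95% exact Poisson interval 132 to 182) in replicate 1 and 161 (137 to 188) in replicate 2, against 113 (93.1 to 136) and 125 (104 to 149) at the low-end peak of BIP2, and these intervals overlap slightly. The ChIP peak of replicate 2 overlapped the first DAP region by 97 bp, while the nearest ChIP and DAP summits were 769 bp apart. Reproducible ChIP and DAP regions overlapped each other at 1 of the 8 genes, BIP3, which is close to the 12.2% share of all coding genes. The overlap was covered by the ChIP peak of replicate 2 alone.

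Set side by side, the constitutive and the induced genes thus differed in where ChIP placed NAC103. BIP1 and BIP2 carried a peak of 387 bp to 501 bp with its summit inside the gene, in 2 of 3 replicates. These widths are not small for the lists, whose median widths were 381 bp in replicate 2 and 363 bp in replicate 3. The peak assigned to BIP3 was wider, 1301 bp to 1800 bp, in 3 of 3 replicates, with its summit in the neighbour SRC2. It entered the BIP3 span in replicate 2 only, and in the other replicates it reached the flank alone. A ChIP summit in a coding neighbour was not particular to BIP3, as SHD, ERDJ3A and ERDJ3B had such summits too. BIP1 has no other gene within 2000 bp, and the nearest gene to BIP2 lies 613 bp away. A comparison of 2 genes with 1 allows no test, and the part of the neighbours in this difference was not tested.

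**Figure D2:**
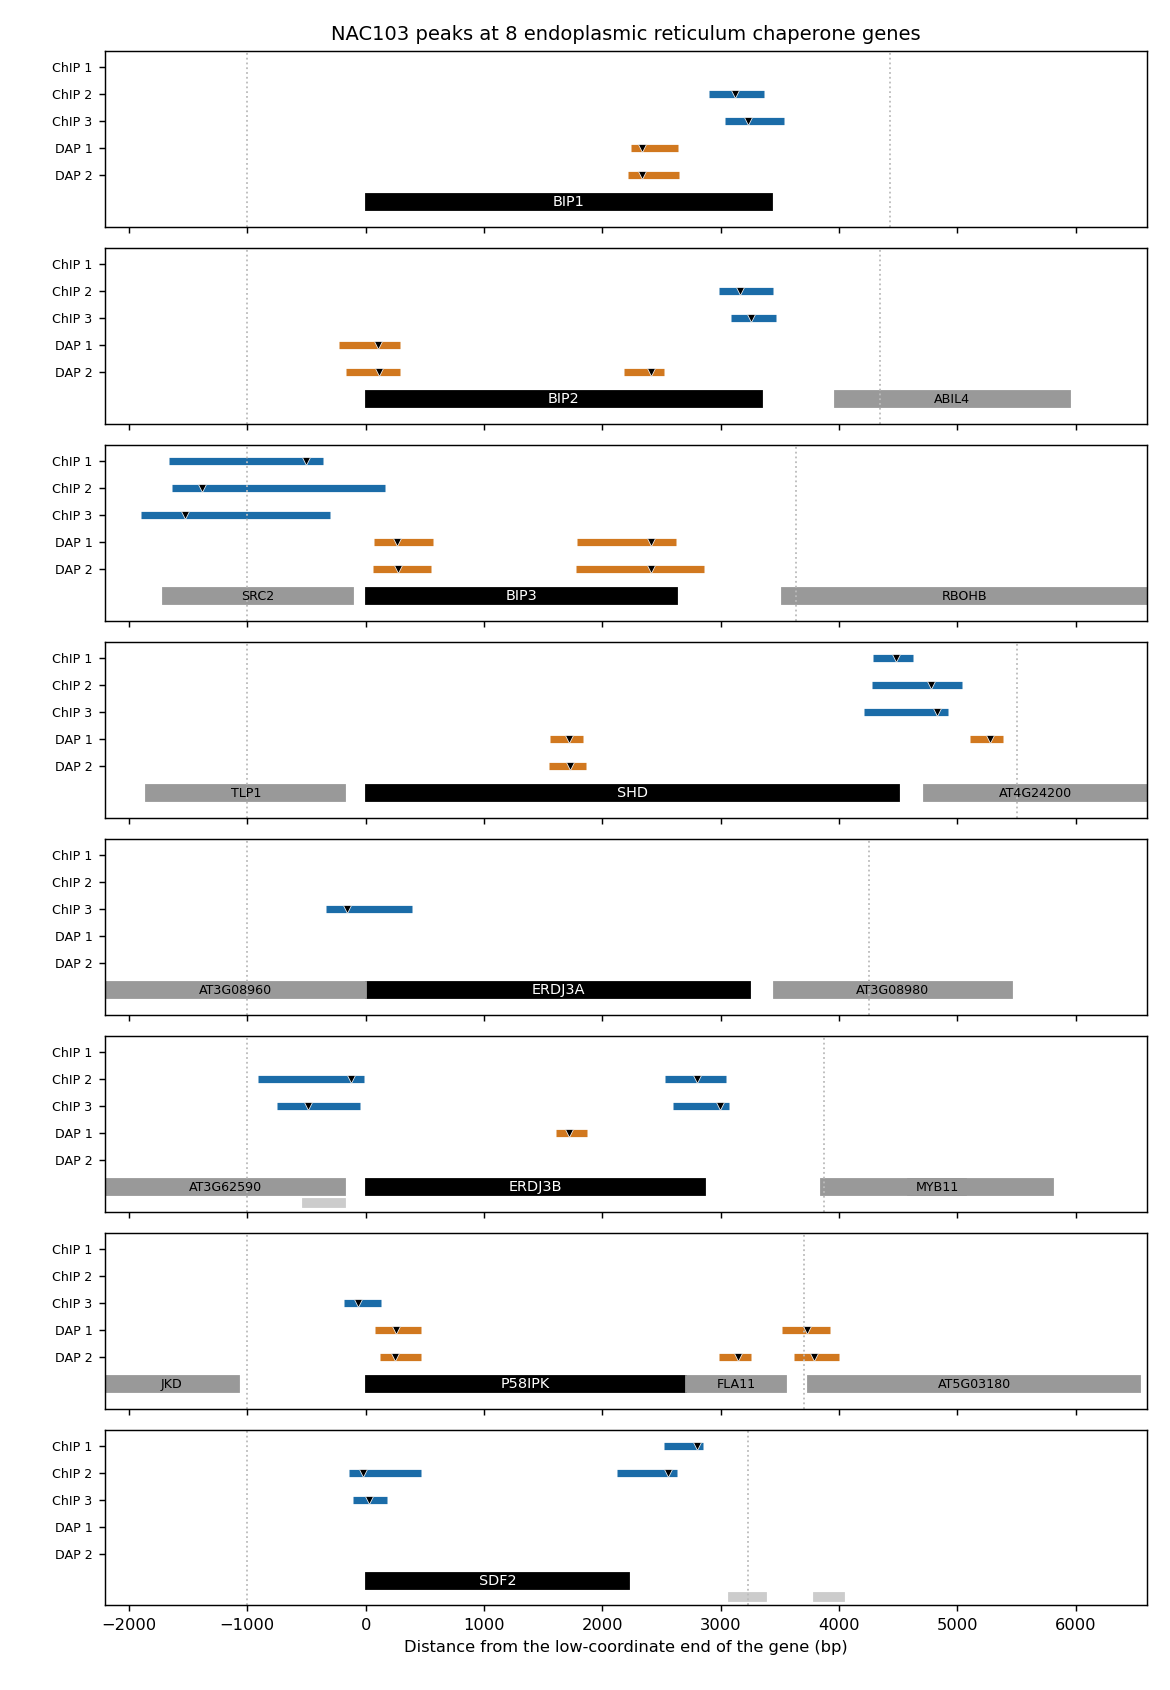
Peaks at the 8 genes by distance from the low-coordinate end of each gene in bp, with 1 row per ChIP (blue) or DAP (orange) replicate; bars are peaks, triangles their summits, black boxes the named genes, grey boxes other coding genes, pale boxes noncoding RNA genes, and dotted lines mark the 1000 bp flanks. At BIP1 and BIP2 the ChIP peaks sit at the high end and away from the DAP peaks, and at BIP3 all 3 ChIP summits lie in SRC2.

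SHD, the Hsp90 of the ER, was the other gene with a ChIP peak in every replicate. The peaks merged to chr4:12555764-12556589 at the high end of the gene. Their folds were 1.99, 2.67 and 2.19 in replicates 1, 2 and 3, at the 57.7, 88.1 and 31.1 percentile. The summit of replicate 1 lay 24 bp inside SHD, and those of replicates 2 and 3 lay 274 bp and 323 bp beyond it. The latter fell 64 bp and 113 bp inside AT4G24200, a coding gene that lies 209 bp beyond the high end of SHD. The peaks of replicates 2 and 3 therefore span the gap between these genes, while that of replicate 1 ends before AT4G24200. DAP placed its reproducible region in the body of SHD, within chr4:12553098-12553417, with summits 1722 bp and 1731 bp inside the low end and folds of 2.34 and 2.37. A second DAP peak, in replicate 1 only, lay inside AT4G24200 with a fold of 2.38.

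Among the J proteins, the genes differed in which assay bound them. ERDJ3B, the J protein that works with SDF2, had ChIP regions at both ends. At its low end, within chr3:23149873-23150767, the summits lay 127 bp outside the gene in replicate 2 (fold 2.64) and 484 bp outside in replicate 3 (fold 2.00). The latter summit was also inside AT3G62590 and a noncoding RNA gene. At its high end, within chr3:23153313-23153850, the summit lay 66 bp inside the gene in replicate 2 (fold 1.86) and 129 bp outside in replicate 3 (fold 2.34). The end with the higher fold differed between the replicates, but the reads at the summits of the ends had overlapping 95% exact Poisson intervals in each. In replicate 2 these were 49.3 to 81.7 at the low end and 31.1 to 57.9 at the high end, and in replicate 3 they were 33.7 to 61.4 and 39.7 to 69.3. In DAP, replicate 1 had 1 peak in the body of ERDJ3B, with a fold of 2.20 and 105 reads at its summit, and replicate 2 had none.

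ERDJ3A, a J protein also named TMS1 for its role in the heat tolerance of pollen, had a single peak in all 5 lists. It was a ChIP peak of replicate 3 at chr3:2736962-2737691, with a fold of 3.25 at the 82.0 percentile, a −log10 q of 14.7 and 70 reads at the summit (95% exact Poisson interval 54.6 to 88.4). This was the highest fold of replicate 3 among the 8 genes, and yet replicates 1 and 2 had no peak there. Its summit lay 155 bp outside the low end of ERDJ3A and 214 bp inside AT3G08960, a coding gene whose span overlaps that of ERDJ3A by 60 bp.

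P58IPK, named after the mammalian cochaperone and protein kinase inhibitor, showed the opposite pattern. Its ChIP peak, in replicate 3 only, had a fold of 1.60, a −log10 q of 1.42 and 36 reads at the summit over a background of 22.1, which put it at the 0.454 percentile of its list. DAP bound P58IPK in both replicates, within chr5:750184-750568, with summits 256 bp and 251 bp inside the low end and folds of 2.92 and 2.31. The weak ChIP peak overlapped a DAP peak by up to 45 bp, with the nearest summits 316 bp apart. A second reproducible DAP region, at chr5:753618-754098, had summits 1025 bp and 1086 bp beyond the high end, in or next to AT5G03180, and entered the flank by its edge alone. One more DAP peak, in replicate 2 only, lay inside FLA11, a gene of a fasciclin-like arabinogalactan protein of the cell wall, with a fold of 2.49.

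SDF2 had ChIP peaks at both ends and no DAP peak. At its low end, within chr2:10683976-10684586, the summits lay 25 bp outside the gene in replicate 2 (fold 2.19) and 28 bp inside it in replicate 3 (fold 1.91). At its high end, within chr2:10686246-10686968, the summits lay 573 bp outside in replicate 1 (fold 1.82) and 326 bp outside in replicate 2 (fold 1.88). No summit at SDF2 fell inside another gene. The ChIP peaks at SDF2 had 38 to 58 reads at the summit and a −log10 q between 2.75 and 5.35. The low-end peak ranked at the 63.3 percentile in replicate 2 and at the 11.8 percentile in replicate 3, and the high-end peak at the 30.3 percentile in replicate 1 and the 27.8 percentile in replicate 2.

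**Figure D3:**
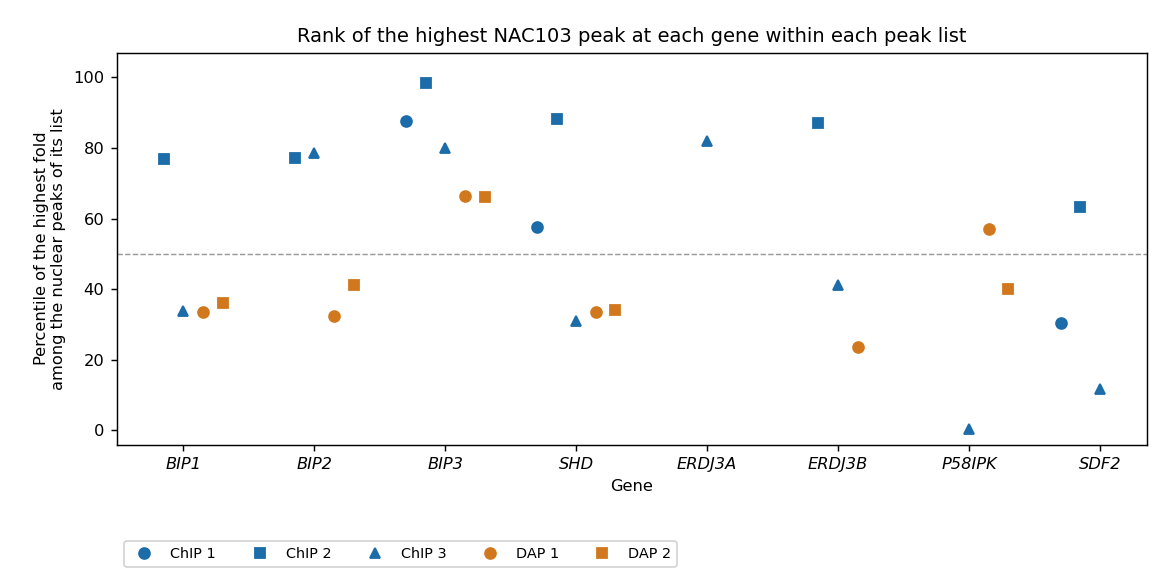
Percentile of the highest fold enrichment at each of the 8 genes among all nuclear peaks of the same list (0 to 100), with 1 point per replicate of ChIP (blue) and DAP (orange) and no point where a list has no peak. BIP3 is above the dashed median in all 5 lists, in ChIP by peaks with summits in SRC2. BIP1, SHD, ERDJ3B and SDF2 spread widely between ChIP replicates, and P58IPK is at the bottom of ChIP replicate 3.

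Across the 8 genes the peaks were of moderate rank. The 20 ChIP peaks had folds between 1.60 and 3.99 and between 36 and 124 reads at the summit, and 11 of them ranked above the median of their list. The 18 DAP peaks had folds between 1.97 and 3.25 and between 98 and 161 reads, and 4 of them ranked above the median: those of BIP3 other than its high-end peak in replicate 2, and the low-end peak of P58IPK in replicate 1. The ChIP peak of BIP3 and SRC2 in replicate 2 ranked highest of them, at the 98.5 percentile of its list. At a −log10 q of at least 10, 4 ChIP peaks remained, and 16 of the 18 DAP peaks. The ChIP peaks were that of BIP3 and SRC2 in replicates 2 and 3, and those of BIP2 and ERDJ3A in replicate 3.

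ChIP summits lay near gene ends more often than DAP summits, both at the 8 genes and over all coding genes. Of the 20 ChIP summits, 16 lay within 500 bp of an end of the chaperone gene, at a median distance of 193 bp, and none lay deeper inside it. In the single lists these were 1 of 3, 7 of 8 and 8 of 9, where all pairs of a peak and a coding gene gave 61.2%, 57.8% and 65.9%. Of the 18 DAP summits, 9 lay within 500 bp of an end, 4 of 9 and 5 of 9 in the 2 lists, beside 43.1% of pairs in each. Another 6 DAP summits, 3 in each list, lay inside a gene and more than 500 bp from both ends, beside 27.9% and 27.8% of pairs. They belonged to BIP1 and SHD in both replicates, ERDJ3B in replicate 1 and BIP2 in replicate 2. These DAP counts are close to the shares of all pairs. For ChIP, the share of pairs deeper inside genes was 9.59%, 14.9% and 7.72% in the 3 lists, beside the 0 of 20 peaks here. A coding neighbour held the summit in 7 ChIP and 3 DAP peaks, but the share over all pairs was not counted, so these counts have no background. Peaks of 1 gene in several replicates are not independent, and no test was made.

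**Figure D4:**
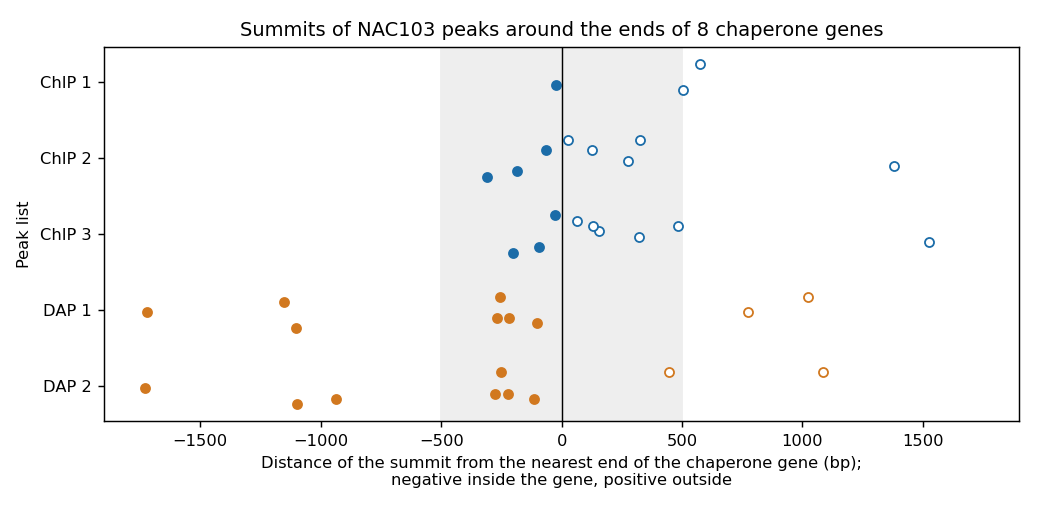
Distance in bp of each summit from the nearest end of its chaperone gene, negative inside and positive outside, for the 3 ChIP (blue) and 2 DAP (orange) lists; filled points are inside the gene, open points outside, and the grey band marks 500 bp on either side of the end. The ChIP summits gather in the band or outside the gene, and 6 DAP summits lie deeper inside. Over all coding genes, too, a larger share of summits lay in the band in ChIP than in DAP.

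The other genes of folding in the ER and of its stress response were counted in the same way, on a list of 32 loci that includes calnexins, calreticulins, disulfide isomerases, stress sensors and transcription factors. A reproducible ChIP region was present at 19 of them (59.4%) and a reproducible DAP region at 18 (56.2%), with both at 11 (34.4%), beside the same background shares of 39.6%, 59.9% and 25.2%. The genes with both were CRT3, PDIL1-6, UNE5, ERO1, ATERDJ2A, ATERDJ2B, AT4G16660, BZIP60, NAC062, BI1 and BAG7. CRT3 is a calreticulin, PDIL1-6 and UNE5 are disulfide isomerases, NAC062 is a membrane-bound transcription factor, BI1 limits cell death and BAG7 is a cochaperone of the ER. ERO1, the oxidase that recharges disulfide isomerases, had the highest DAP folds of these, 6.14 and 5.31, above every DAP peak at the 8 chaperone genes in the same lists. BZIP60, a transcription factor of the unfolded protein response that also acts on BIP3, had its highest ChIP folds at 2.38, 2.51 and 4.56 in the 3 replicates. The ER translocon J protein genes ATERDJ2A and ATERDJ2B each had a reproducible region in both assays. ChIP folds of ATERDJ2A were 2.14 and 3.08 in replicates 2 and 3, and those of ATERDJ2B 2.03 and 2.64 in replicates 1 and 3.

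Genes most like BIP2 and BIP3 were sought by the percentile of the highest fold in the 5 lists, counting a list without a peak as 0. Nearest to BIP2 were AT3G45210, AT5G11640 and TIM44-1 (AT2G20510), at Euclidean distances of 5.37, 7.27 and 8.35 percentile points. Nearest to BIP3 were AT5G05200, AT2G23690 and AT5G10980, at 5.43, 9.44 and 9.61 points. The measure uses 5 values per gene and ignores where a peak lies, and BIP3 enters it with the ChIP peak whose summits are in SRC2.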

How the data were processed

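The authors used BWA, MACS2 and the TAIR10 build, per the submitters' processing notes; versions are not given in the sources used here. Peaks were called for every replicate separately against input, per the names of the deposited files. Each deposited narrow-peak list holds a score, a fold enrichment as a ratio, a −log10 p-value, a −log10 q-value and a summit for each peak. The lowest −log10 q in a list was 1.30. Organelle peaks were left out. The fold ranked peaks within a list only, and ranks from lists of unequal length show no change.

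Gene spans came from a RefSeq gene table of assembly TAIR10.1, without strand or exons. Distances alone are printed from it. In 25 of 25 chromosome segments the share of ChIP summits up to 300 bp beyond a gene end was higher than when they were moved by 2000 bp either way, which checks the table against the lists. Within an assay, peaks sharing 1 bp or more were merged. Sequences and motifs were not analysed here.

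The files hold no library depth. Reads at a summit were recovered as the whole number that, with 1 added to pileup and background, gives the deposited fold and Poisson p. A number within 0.01 of the deposited −log10 p was found in 100% of nuclear peaks in every list. When the −log10 p was shifted at random, it was found in 14.1% to 26.4%. These reads depend on that assumption, and their intervals cover counting error only.

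The 8 genes, the list of 32 genes and all comparisons were chosen with earlier results of these data known. The named genes were the 8, coding neighbours that hold a summit, the 3 most like genes of BIP2 and of BIP3, and listed ER genes with a region in both assays. No test was made. The overlap and read calculations were tested on simulated data. Python 3.11.15, pandas 2.3.3 and scipy 1.17.1 were used. The alternatives were a stricter q, other windows, summits in place of peaks, equal list lengths, other merging and each replicate left out.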

Additional observations from a re-analysis of the deposited data

How the results depend on the processing

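Of 63 alternatives for the 8 counts of genes, 44 stayed within 1.5 times of the value reported and 19 were lower. At a −log10 q of at least 10, ChIP peaks were at 0, 1 and 3 of the 8 genes in replicates 1, 2 and 3, beside 1.02%, 7.72% and 23.2% of coding genes. Reproducible ChIP regions then remained at 1 gene, BIP3 (5.44% of coding genes), which was also the only 1 with both assays (3.40%). The ChIP peaks that passed at BIP3, in replicates 2 and 3, had their summits in SRC2, 1379 bp and 1524 bp outside BIP3. The DAP counts stayed at 6, 5 and, reproducible, 5 (56.2%, 56.4% and 52.1%). With no flank, ChIP replicate 1 had a peak at 1 gene, SHD (9.34%), and BIP3 kept a ChIP peak in replicate 2 only. With summits in place of peaks, ChIP replicates 2 and 3 had 5 and 7 genes (48.3% and 57.6%), and BIP3 was lost from both. Under either setting BIP3 still counted as a gene with a reproducible ChIP region. With the 4187 highest-fold peaks of each list, ChIP replicate 3 had 3 genes (18.3%) and the DAP replicates 0 (18.8% and 18.9%). Reproducible regions were then at 3 genes in ChIP (14.7%), 0 in DAP (17.1%) and 0 in both (3.16%). A ChIP peak in all 3 replicates was present at 2 genes, BIP3 and SHD, which both had a DAP region, so the count in both assays was 2 as well (13.6% and 8.85% of coding genes). Reproducible regions that overlap each other between the assays were at 1 gene (12.2%). Leaving out a replicate gave 2 to 6 genes for ChIP (13.8% to 37.2% of coding genes), 5 to 6 for DAP (64.4% to 64.7%) and 2 to 5 for both (8.96% to 27.1%). With a DAP replicate left out, a peak in the other was enough. The DAP counts are then those of the single lists and do not show reproducibility. The count in both was 2 without ChIP replicate 2 and 2 without replicate 3 (BIP3 and SHD each time). It was 5 without DAP replicate 2, with ERDJ3B added through its peak in DAP replicate 1 alone. The mean percentile of the highest fold ran from 33.7 to 77.0 for BIP1, 77.3 to 78.7 for BIP2 and 83.8 to 93.0 for BIP3 in ChIP, and from 33.5 to 36.1, 32.4 to 41.1 and 66.2 to 66.4 in DAP. The background of genes of matching span length was added after seeing the data. The peak nearest the gene start was not run for lack of strand. No paired analysis was possible because no result comes from a test and ChIP and DAP replicates share only numbers.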
